A study of Mus musculus with 12 samples.

Results

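The genes described here are 47 transcription factor genes outside the Hox clusters that specify lineages other than the pancreatic β cell, of 21738 protein-coding genes in the GENCODE annotation of the mouse genome (build GRCm39, also called mm39). They were chosen by name and not by a methylation value, but with earlier results of these data known. They comprised 8 Lhx genes, 6 Dlx genes, Six2, Six3 and Six6, 8 Tbx genes, 7 Pax genes, Pou4f1 and Pou4f2, Gsx1, Gsx2 and Gbx2, En1 and En2, Emx1 and Emx2, Otx2, Nkx2-1 and Nkx2-5, Barhl1 and Barhl2, and Olig2. Every hypomethylated region (HMR, a run of CpGs called unmethylated by the authors' software) within 5 kb of these genes was included, which gave 175 of the 87689 regions obtained by merging the HMRs of all pools. Transcription was not part of the files used here, so that these genes are called developmental regulators and not silent genes.

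DNA methylation had been measured by whole genome bisulfite sequencing in 12 libraries of sorted islet cells, from mice at postnatal day 2 (P2) and day 60 (P60). All groups shared the genotype Myt1cCre; Ngn3nCre; Rosa26eYFP; InsApple, in which 2 Cre fragments, driven by Myt1 and Ngn3, together switch on eYFP in the descendants of islet progenitors that express both genes, and an insulin-driven Apple protein marks β cells. The eYFP+ β cells therefore come from M+N+ progenitors and the eYFP- β cells from M-N+ progenitors, with 2 libraries per subtype at P2 and 4 at P60, each made from cells pooled over several sorts and mice. Sample titles call the reporter eGFP, and a label field names all islet cells where the titles name sorted β cells.

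Developmental regulators of this kind usually carry Polycomb proteins in cells of other lineages, and their CpG-rich DNA then stays free of methylation over broad domains that are often called methylation valleys. In adult and cancer cells, the edges and bodies of such domains are known as places where methylation can accumulate. Ordinary CpG-rich promoters are covered by a much narrower unmethylated region around the transcription start site (TSS).

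Methylated and unmethylated reads of each CpG were available for 1 pool per subtype and stage, with a mean of 24.7, 24.8, 44.8 and 44.5 reads per CpG in the P2 eYFP-, P2 eYFP+, P60 eYFP- and P60 eYFP+ pools. Every set of 4 values below is in this order. The genome-wide level was between 67.5% and 70.05%, and reads of the mitochondrial genome were methylated at 0.379% to 0.610%. Of 9 β-cell markers, Pdx1, Nkx6-1 and Mafa had TSS levels of at most 1.29%, and the body of the insulin gene Ins1 fell from 35.5% and 46.0% at P2 to 7.67% and 9.33% at P60. The markers did not all follow this pattern, since TSS levels were 69.0% to 78.6% for Ins2, 79.7% to 85.0% for G6pc2 and 13.9% to 23.1% for Ucn3, and the acinar and duct regulators Ptf1a and Sox9 also stayed at or under 2.11%. These levels alone thus did not identify the cell type. Single libraries held only the positions of 38052 to 60950 HMRs. The P2 eYFP- library labelled female had 92.5% of 254 X-linked HMRs that all P60 male and no P60 female libraries had, and the library labelled male had 13.4%. The sex labels of these 2 libraries thus went against their X chromosomes, and both entered the same pool. All P2 libraries carried 1 file-name prefix and the P60 libraries 2 others, so stage and any difference between these sets cannot be told apart. Pooled levels have no replicate error: a Fisher's exact test compares the pools and not the mice, and the 95% Wilson intervals cover counting error only.

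The bases in front of the regulators differed as much as their methylation did. The 150 bases upstream of the TSS are shown, 5′ to 3′ on the gene's strand with CpGs in capitals, for Pou4f1 as the TSS that stayed lowest among the 5 with the smallest change and for Lhx3, Tbx4 and Barhl1 as 3 of those with the largest rise. The Pou4f1 window lies at chr14:104705505-104705654 on the minus strand, that of Lhx3 at chr2:26098302-26098451 on the minus strand, that of Tbx4 at chr11:85776737-85776886 on the plus strand and that of Barhl1 at chr2:28806681-28806830 on the minus strand, all in GRCm39. The other 3 windows lie outside the gene, and the Lhx3 window touches an exon annotated as noncoding.
Pou4f1: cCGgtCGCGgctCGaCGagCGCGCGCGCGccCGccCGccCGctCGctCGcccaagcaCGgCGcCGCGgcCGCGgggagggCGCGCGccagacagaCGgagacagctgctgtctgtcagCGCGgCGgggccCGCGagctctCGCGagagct
Lhx3: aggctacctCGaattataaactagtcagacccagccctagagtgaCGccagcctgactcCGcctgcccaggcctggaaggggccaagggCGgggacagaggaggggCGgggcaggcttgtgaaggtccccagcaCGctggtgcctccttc
Tbx4: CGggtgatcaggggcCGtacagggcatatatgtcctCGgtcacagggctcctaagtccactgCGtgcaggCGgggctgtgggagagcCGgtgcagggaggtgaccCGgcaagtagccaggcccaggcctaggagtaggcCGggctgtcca
Barhl1: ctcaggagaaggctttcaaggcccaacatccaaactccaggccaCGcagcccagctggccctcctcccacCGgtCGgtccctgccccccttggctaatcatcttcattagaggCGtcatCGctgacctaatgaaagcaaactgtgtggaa
The Pou4f1 window held 32 CpGs, with levels of 0.709%, 0.678%, 1.116% and 1.14%, and none of its intervals reached above 1.83%. The Lhx3 window held 6 CpGs and went from 40.9% (33.8 to 48.4) and 40.8% (33.1 to 49.1) at P2 to 62.3% (57.8 to 66.7) and 58.3% (53.7 to 62.7) at P60. The Tbx4 window held 8 CpGs, with 53.3% and 51.0% at P2 and 68.0% and 73.2% at P60. The Barhl1 window held 5 CpGs, with 21.3% (14.1 to 31.0) and 24.6% (17.7 to 33.1) at P2 and 36.0% (30.0 to 42.5) and 38.3% (32.7 to 44.2) at P60. Other windows with few CpGs had little methylation. That of Nkx2-1 held 5 CpGs, with 0%, 1.82%, 1.18% and 0.866%. That of Lhx5 held 3 CpGs, with 2.82%, 2.78%, 2.27% and 3.25%.

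As a group, the regulators had CpG-rich starts inside wide unmethylated regions. The ratio of observed to expected CpGs within 500 bp of the TSS was at least 0.6, called CpG-rich here, in 36 of 47 (76.6%), against 42.2% of all protein-coding genes. A merged HMR covered the TSS of 43 of 47, with a median width of 13885 bp, against 1800 bp over all genes and 1956 bp over CpG-rich ones. It was 5 kb or wider in 36 (76.6%), against 2.07% of all genes. The widest lay over Dlx5 and Dlx6 (36378 bp), a pair of neighbours that pattern the jaw and forebrain interneurons, and over Dlx1 and Dlx2 (28773 bp), so that the 43 genes shared 41 regions. Lhx3, Lhx4, Pax8 and Tbx4 had no HMR over the annotated TSS in any library or pool. Regulators that β cells use themselves, 17 genes such as Pdx1 and Nkx6-1, had a median of 7129 bp, and the 39 Hox genes, many of which share a region, one of 39502 bp.

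TSS levels stayed low at P60 in most regulators, and nearly all were slightly higher than at P2. The median over the 47 genes was 2.22% and 1.97% at P2 and 3.20% and 3.69% at P60. The change was positive in 47 genes in eYFP- cells and in 46 in eYFP+ cells, with medians of 1.38 and 1.59 percentage points. Over all genes the change was positive in 48.8% and 41.4%, with medians of -0.02 and -0.19 points, and over CpG-rich genes the medians were -0.05 and -0.18. Hox genes had medians of 1.62 and 1.33 points, and the islet regulators 0.07 and -0.10. A mean level under 10% over the 4 pools was found in 41 regulators.

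A gene was called at a Benjamini-Hochberg adjusted Fisher p under 0.05, adjusted over all genes, and a difference of at least 5 points. By this rule 8 regulators rose at the TSS in eYFP- cells, where 8.08% of all genes did, and 7 in eYFP+ cells, where 7.84% did. No regulator fell in either subtype, against 3.59% and 6.01% of all genes. The counts of 8 and 7 that rose, of 47, lay above the share of all genes. An unadjusted Fisher's exact p under 0.05 was found for 29 and 31 of the 47. Counts at an unadjusted p between pools, here and below, have no share of all features beside them. Among CpG-rich genes 1.38% rose in each subtype and 0.459% and 1.15% fell, and 5 and 4 of the 36 CpG-rich regulators rose.

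**Figure D1:**
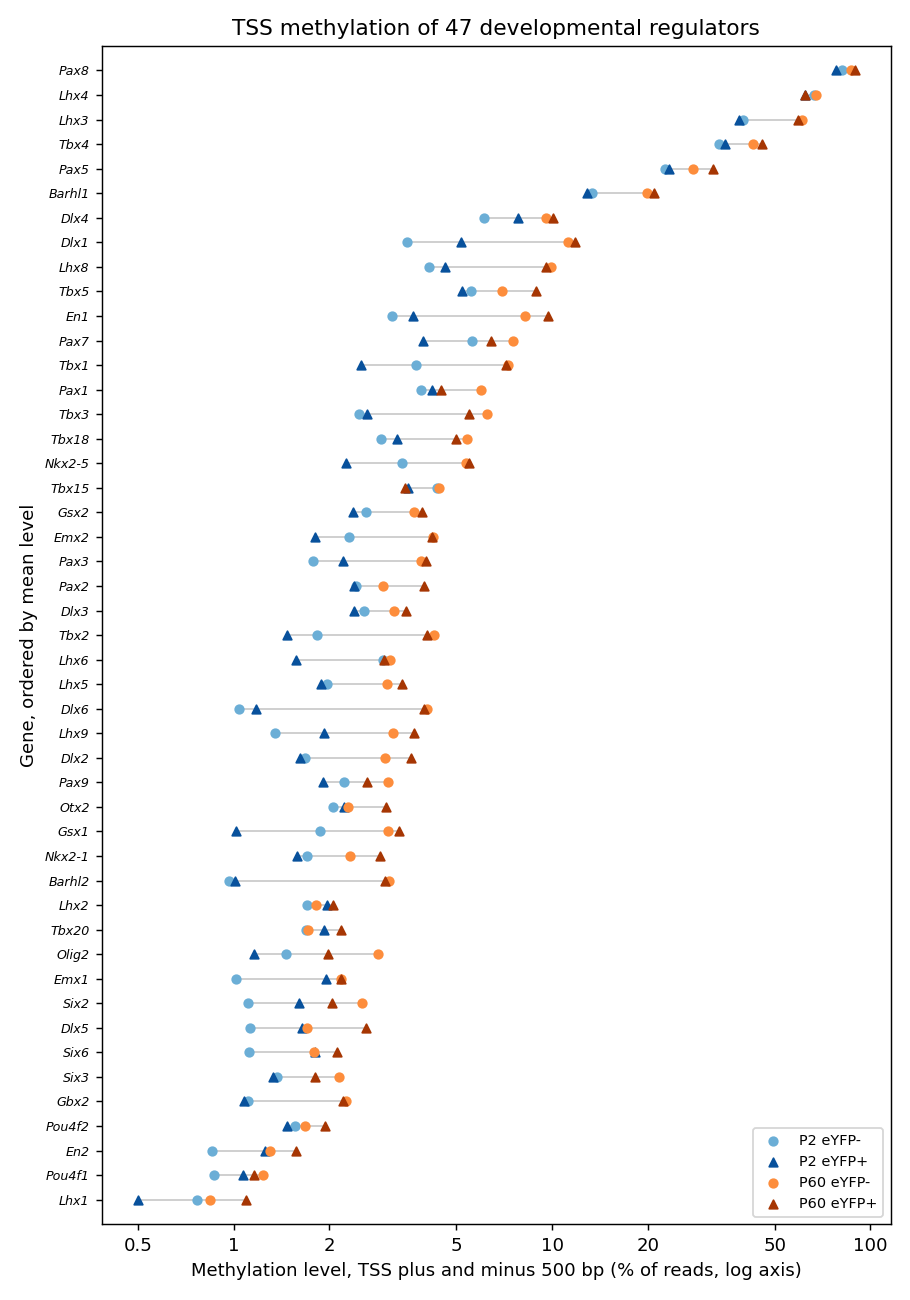
Methylation level within 500 bp of the TSS (% of reads, log axis) of the 47 regulators, ordered by their mean, with 1 point per pool and a line joining the lowest and highest. The P60 points lie to the right of the P2 points for most genes, and 41 genes have a mean under 10%.

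LIM-homeodomain gene Lhx3, needed for the pituitary and motor neurons, changed most at its TSS, from 39.9% and 38.6% to 60.9% and 59.2% (Fisher's exact test, adjusted p = 9.65e-17 and 2.03e-13). Its CpG nearest the TSS, 15 bp upstream in a noncoding exon, is shown with its 30 surrounding bases (chr2:26098302-26098331, minus strand), the CpGs in capitals.
Lhx3, CpG 15 bp upstream: gaaggtccccagcaCGctggtgcctccttc
It was read at 19.2%, 41.7%, 63.6% and 59.3%, on 26, 24, 77 and 86 reads. Lhx8, a forebrain cholinergic neuron factor, rose from 4.11% to 9.91% in eYFP- cells and stood at 4.62% and 9.55% in eYFP+ cells, just under 5 points apart. Lhx4, which acts with Lhx3 in the pituitary, had 66.5%, 62.1%, 67.7% and 62.4% on 7 CpGs. The lowest TSS of all was that of Lhx1, a head organizer and kidney gene, at 0.768%, 0.501%, 0.842% and 1.1%. Lhx2, a cortex and eye gene, had 1.70%, 1.97%, 1.82% and 2.05%.

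Among the T-box genes, hindlimb and lung factor Tbx4 rose from 33.4% and 35.1% to 42.6% and 45.7% (Fisher's exact test, adjusted p = 2.06e-05 and 1.15e-06). The CpG 11 bp upstream of its TSS (window chr11:85776862-85776891, plus strand, CpGs in capitals) had the largest change, averaged over the subtypes, of the 21 CpGs near the TSS with enough reads.
Tbx4, CpG 11 bp upstream: gcctaggagtaggcCGggctgtccagcctc
It was read at 39.3%, 42.4%, 64.6% and 72.7%. Tbx15, a skin and skeleton gene, was the only regulator with a lower value in a subtype, at 4.34%, 3.53%, 4.40% and 3.46%, well inside counting error. Tbx20, a heart gene, had 1.69%, 1.92%, 1.71% and 2.17%. Forelimb gene Tbx5 had 5.55%, 5.23%, 6.96% and 8.88%, and pharyngeal gene Tbx1 had 3.74%, 2.51%, 7.28% and 7.18%, neither of them called.

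Pax8, a thyroid and kidney gene, rose from 81.5% and 78.1% to 87.1% and 89.2% (Fisher's exact test, adjusted p = 0.0438 and 6.76e-06). Pax5, which commits lymphoid cells to the B lineage, rose from 22.6% and 23.3% to 27.6% and 32.1% (adjusted Fisher p = 0.0365 and 5.98e-05). Other Pax genes, which pattern the eye, somites, muscle and neural crest, stayed between 1.78% and 7.53% in every pool. Barhl1, a hair-cell and cerebellar neuron gene, rose from 13.4% and 12.9% to 19.9% and 20.9% (adjusted Fisher p = 0.000338 and 3.41e-06), while its relative Barhl2 had 0.968%, 1.01%, 3.08% and 2.99%. Dlx1 rose from 3.5% and 5.16% to 11.2% and 11.8% (adjusted Fisher p = 2.04e-09 and 1.79e-06), and its neighbour in the same HMR, Dlx2, had 1.68%, 1.61%, 2.98% and 3.61%. The midbrain and hindbrain gene En1 rose from 3.15% and 3.65% to 8.24% and 9.73% (adjusted Fisher p = 3.26e-07 and 1.13e-08), whereas En2 had 0.853%, 1.26%, 1.30% and 1.57%.

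The sensory neuron genes Pou4f1 and Pou4f2 kept some of the lowest starts, with 0.869%, 1.07%, 1.24% and 1.159% for the first and 1.56%, 1.47%, 1.68% and 1.93% for the second. The eye and forebrain genes Six3, Six6 and Otx2 and the nephron progenitor gene Six2 all stayed at or under 3.02%. Nkx2-1, a thyroid, lung and forebrain gene, and Olig2, a motor neuron and oligodendrocyte gene, stayed at or under 2.89%, and the heart gene Nkx2-5 had 3.37%, 2.25%, 5.38% and 5.49%. Emx1 and Emx2 of the cortex, Gsx1 and Gsx2 of the ventral forebrain and Gbx2 of the hindbrain lay between 1.02% and 4.24%. None of these genes was called at the TSS in either subtype.

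The higher levels at P60 were not limited to the TSS. In 1-kb bins the median went from 3.94% and 3.54% to 5.95% and 6.42% just upstream of the TSS and from 1.94% and 1.74% to 3.46% and 3.34% just downstream, where the mean change of the subtypes was positive in 47 of 47 genes. Medians were also higher at P60 in both subtypes in every bin from 1 to 9 kb downstream, for example from 8.99% and 8.54% to 12.7% and 12.7% at 7 to 8 kb. Over all genes the bin just downstream of the TSS had 6.54%, 6.62%, 7.05% and 7.18%. From 7 to 10 kb upstream, outside most of these regions, the regulators' medians were lower at P60, with 68.7% and 69.9% against 63.5% and 66.3% at 8 to 9 kb. All genes were lower there too, with 76.9% and 77.8% against 75.7% and 75.1%. The median change per gene in this bin, averaged over the subtypes, was -1.80 points for the regulators and -1.31 points for all genes.

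**Figure D2:**
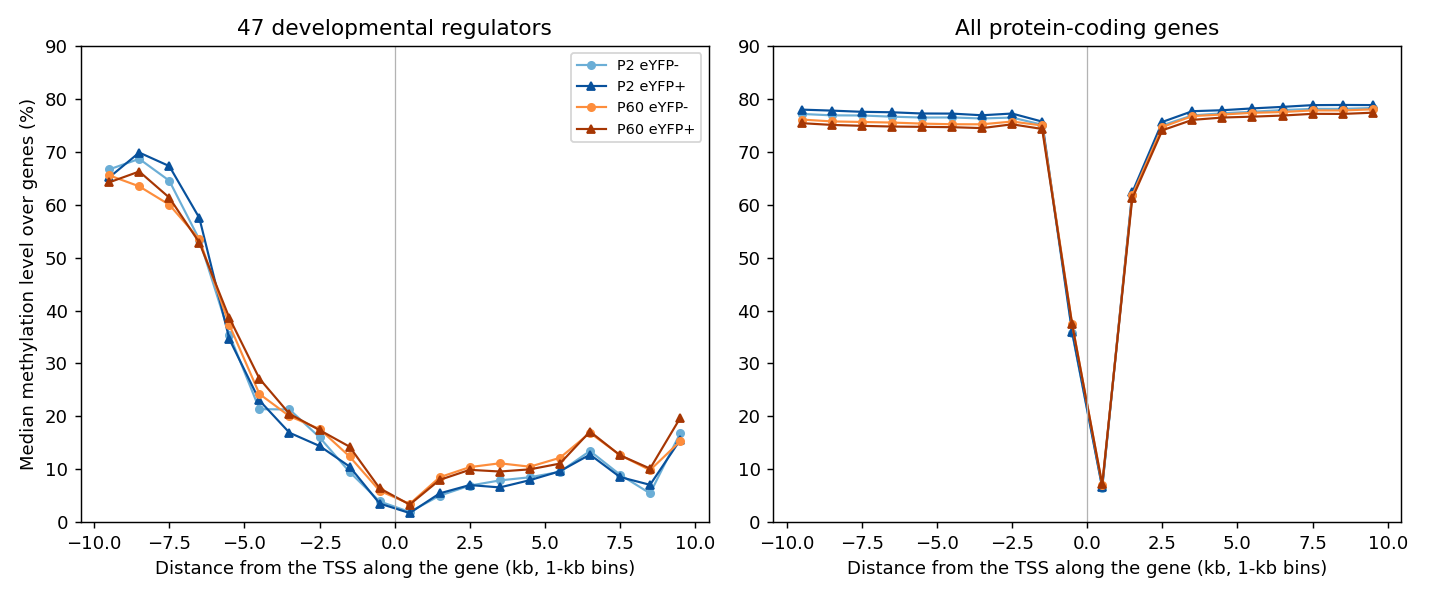
Median methylation level over genes (%) in 1-kb bins by distance from the TSS (kb), for the 47 regulators (left) and all protein-coding genes (right), 1 line per pool. The regulators stay under 20% from 2 kb upstream to 10 kb downstream, with the P60 lines above the P2 lines around the TSS, whereas the other panel shows a dip about 2 kb wide.

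In most wide regions near the regulators both the core and the edges had higher levels at P60. Over the 67 HMRs of at least 2 kb near the regulators, the median level of the outer 500 bp went from 13.6% and 13.3% to 16.9% and 17.3%, and was higher at P60 in both subtypes in 47 (70.1%). Over all HMRs of this size, the edges went from 9.16% and 9.19% to 12% and 11.7%, higher in 57.9%. Edges were at least 5 points higher in both subtypes in 17.9% near the regulators and in 24.5% of all. Edges of HMRs of 5 kb or wider were higher in both subtypes in 64.3% near the regulators and in 62.9% of all, with median changes of 2.52 and 3.29 points against 2.82 and 3.08. The cores went from 4.22% and 4.33% to 6.22% and 6.33% near the regulators and were higher in both subtypes in 64 of 67 (95.5%), against 33.7% of all cores, whose medians were 1.5%, 1.68%, 1.57% and 1.59%. The contrast between cores was smaller among wide regions. Of the 544 cores in HMRs of 5 kb or wider, 68.6% were higher in both subtypes, with median changes of 1.15 and 1.06 points, against 42 of 42 near the regulators with 2.21 and 2.06 points. In the 1 kb outside the HMRs, the regulators had 53.8%, 54.9%, 53.9% and 53.2%, and all HMRs of at least 2 kb had 67.9%, 68.2%, 71.9% and 71.2%.

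Single regions of 5 kb or wider differed in how much their edges moved. The Dlx1 and Dlx2 region went from 4.22% and 4.47% to 7.27% and 7.21% in its core and from 10.3% and 12.6% to 16.04% and 16.1% at its edges. Over Lhx5, a hippocampus gene, the 17-kb region had 2.28% and 2.71% at P2 and 3.57% and 3.59% at P60 in its core and 2.50%, 3.21%, 4.54% and 5.73% at its edges. The Pax3 region, over a neural crest and muscle gene, went from 4.02% and 4.07% to 6.44% and 6.60% in its core, while its edges stood at 22.8% and 21.5% at P2 and 21.0% and 20.1% at P60. No test was made of single cores or edges.

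Taking each HMR whole, 172 of the 175 near the regulators had enough reads to be tested. By the same rule as for the TSS 55 rose in eYFP- cells, where 37.9% of all HMRs did, and 51 in eYFP+ cells, where 36% did. In each subtype 1 fell, against 5.02% and 6.8% of all HMRs, at Tbx15 in eYFP- cells and at Six3 in eYFP+ cells. Counts were thus below the share of all HMRs in both directions. HMRs over a TSS rose in both subtypes in 2 of 41, those of Barhl1 and Tbx1, and HMRs elsewhere in 39 of 131, while 30.9% of all HMRs rose in both. That share counts HMRs of every width and place, and no share for HMRs over a TSS alone is given.

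The largest rises of HMRs were at 2 Pax genes, Tbx1 and Barhl1. An HMR of 411 bp at chr4:44520351-44520761, past the 3′ end of Pax5, rose from 14.1% and 20.1% to 49.8% and 50.8% (Fisher's exact test, adjusted p = 1.61e-26 and 6.30e-17). One of 123 bp in Tbx1 rose from 34.6% and 22.97% to 58.7% and 63.4%, and one of 235 bp in Pax2, a kidney and eye gene, rose from 24.8% and 25% to 59.6% and 53.6%. Barhl1 had 4 HMRs that rose within its body besides the one over its TSS. The widest, 1362 bp with 78 CpGs at chr2:28801300-28802661, rose from 14.9% and 13.2% to 41.0% and 37.5% (adjusted Fisher p = 1.45e-101 and 6.34e-81). Its 150 bases at chr2:28801380-28801529 (minus strand), chosen after its values were seen, lie in a coding exon with part of the homeobox, and show how CpG-dense the sequence is that gained methylation, with CpGs in capitals.
Barhl1, coding exon: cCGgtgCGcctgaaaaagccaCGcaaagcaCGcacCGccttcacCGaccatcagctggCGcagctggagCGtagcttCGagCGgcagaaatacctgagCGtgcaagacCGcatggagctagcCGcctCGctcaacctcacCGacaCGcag
These 16 CpGs were read at 9.39% (6.80 to 12.8), 10.98% (8.11 to 14.7), 33.5% (30.6 to 36.4) and 34.5% (31.7 to 37.5).

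Gene bodies with little methylation were mostly higher at P60, while the others moved both ways. The median over the regulators was 12.2%, 12.5%, 13.4% and 13.3%, with median changes of 1.4 and 1.5 points, against -0.75 and -1.47 over all genes. Of the 29 regulators with a mean body level under 20%, 27 had a positive change in each subtype, with medians of 1.54 and 1.70 points, against 0.44 and 0.38 over the 880 genes of this kind. Of the 18 above it, 8 were positive in each subtype, with medians of -0.50 and -0.79 points, where 40.2% and 32.4% of all such genes were positive, with medians of -0.85 and -1.59 points. Called by the rule above, 4 bodies rose in eYFP- cells and 5 in eYFP+ cells, where 4.81% and 3.79% of all genes did (1 in each subtype with a mean level under 20%), and 4 and 5 fell, where 13.5% and 18.7% did. Among genes with CpG-rich starts, 3.92% and 3.03% of bodies rose and 5.38% and 7.49% fell.

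The body of Barhl1 rose the most, from 20.2% and 19.7% to 40.3% and 39.4% (Fisher's exact test, adjusted p = 7.04e-226 and 3.08e-209). Lhx1 rose from 32.8% and 32.1% to 41.1% and 40.3%, although its TSS stayed at or under 1.1%. Pax8 rose from 63.5% and 63.8% to 69.3% and 69.1%, and Tbx1 from 17.1% and 17.0% to 22.3% and 22.1%. Lhx3 rose from 22.7% to 30.4% in eYFP+ cells and had 25.7% and 30.0% in eYFP- cells. The body of En1 had 4.84%, 5.64%, 9.08% and 9.56%. Each of these bodies was higher at P60 in both subtypes, and the stages lay farther apart than the subtypes of a stage.

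The bodies that fell were all methylated in part at P2. Pax3 fell from 46.9% and 46.6% to 38.5% and 38.7% (Fisher's exact test, adjusted p = 1.36e-123 and 1.80e-110), and its TSS had 1.78%, 2.21%, 3.88% and 4.03%. The T-box genes Tbx18 of the epicardium (35.3%, 36.8%, 30.0% and 29.0%), Tbx15 (48.9%, 49.95%, 43.6% and 43.1%) and Tbx20 (54.1%, 54.5%, 49.0% and 49.2%) also fell in both subtypes. Lhx8 fell in eYFP+ cells, from 38.3% to 32.8%, and had 35.9% and 32.4% in eYFP- cells, so that its body and its TSS moved in opposite directions. With the mean of single CpG levels in place of the share of reads, none of these falls was called.

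**Figure D3:**
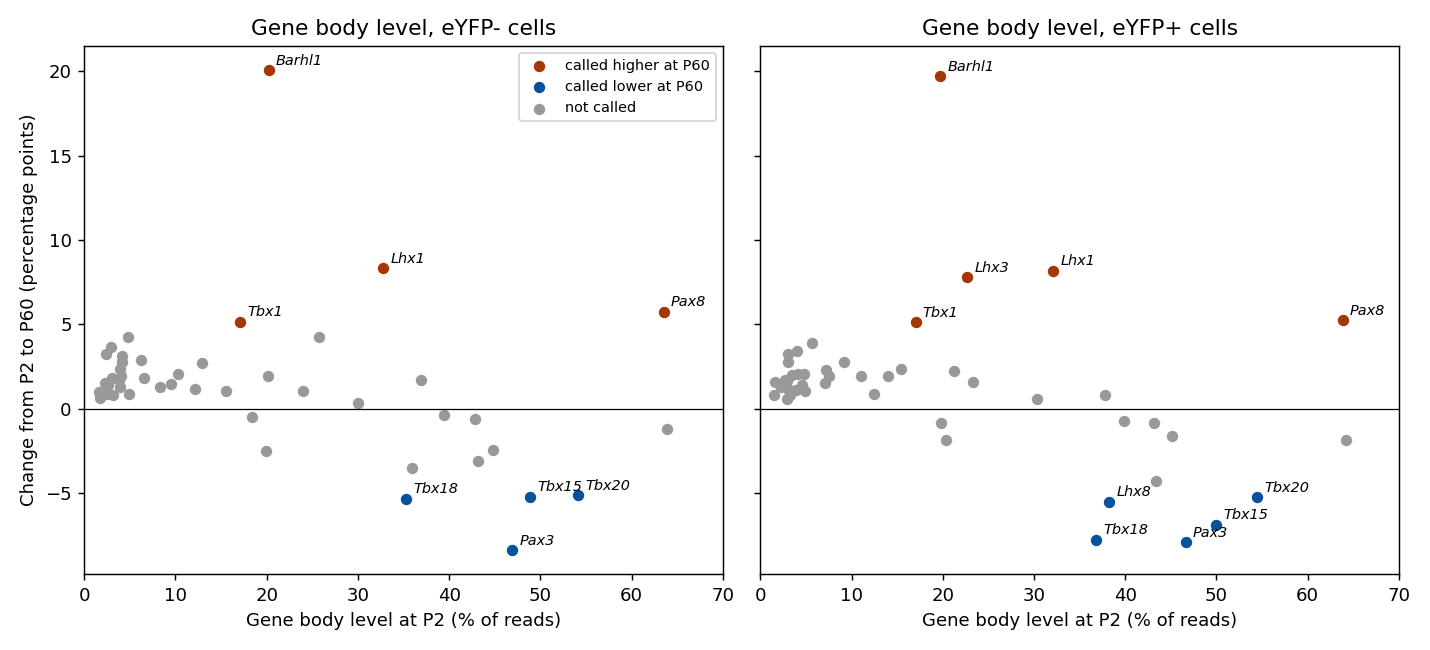
Change of the gene body level from P2 to P60 (percentage points) against its level at P2 (% of reads), 1 point per regulator, in eYFP- cells (left) and eYFP+ cells (right). Bodies under 15% at P2 lie above 0, Barhl1 stands apart near 20 points, and the called falls lie between 35% and 55%.

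Single libraries allowed a test over replicates, since each held the positions of its own HMRs. The width of the HMR over the TSS was compared between the 4 P2 and 8 P60 libraries by a two-sided exact permutation test, whose smallest p is 0.00202 before adjustment over 13293 genes. Of the 43 regulators with such an HMR, 10 were narrower at P60, where 21% of all genes were, and none was wider, where 1.36% of all genes were. On log2 widths limma called 11 of the regulators, where it called 26.2% of all genes. The widths of all 4 P2 libraries exceeded those of all 8 P60 libraries in 9 regulators, against 16.9% of genes, which added Lhx1 and Tbx1 to the 7 called genes with no overlap. With same-numbered libraries averaged as a replicate block, whose smallest p is 0.0667, all 10 calls were lost (exact permutation test, adjusted p = 0.194). With widths divided by the median HMR length of the library, Emx1, Gbx2, Gsx2 and Pax3 were lost and 6 calls were left. No share of all genes is given for this scaling. Against P60 replicates 1 and 2 alone, all 4 unscaled P2 widths were larger in 14 regulators (23.03% of genes). Against replicates 3 and 4 alone they were larger in 12 (20.2%). With fewer P60 libraries such a lack of overlap is easier to meet. Per library, HMRs covered 55.6 to 58.7 Mb at P2 and 42.7 to 46.1 Mb at P60, and the part of this difference in the widths was not tested.

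The muscle stem cell gene Pax7 was the clearest case, with 14388 to 16462 bp in the 4 P2 libraries and 6226 to 6480 bp in the 8 P60 libraries (exact permutation test, adjusted p = 0.0133). The P60 pools split this region by a gap 5913 to 7016 bp from the TSS, which held 7 CpGs and was read at 31.3%, 31.6%, 40.7% and 40.2%. A shift of some 9 points over 7 CpGs thus stood beside a much narrower called region, and both sides of the gap stayed HMRs. Base pairs covered by any HMR within 5 kb of Pax7 fell by 24.6%.

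At Barhl1, the HMR over the TSS was 1166 to 1337 bp at P2, while at P60 none covered the TSS in 7 of 8 libraries and one of 86 bp did in the eighth. The region itself was not lost: P60 pools still had an HMR over 729 bp (59.2%) of the P2 region, which ended short of the TSS. Covered bases around the gene fell from 6445 ± 432 (SD, n = 4) to 1994 ± 243 (SD, n = 8), by 69.1%, the largest loss among the regulators as a share of the covered bases, while Pax7 lost more bases. Pou4f2 went from 6650 to 8209 bp at P2 to 4425 to 5193 bp at P60, with a gap of 6 CpGs at 29.0%, 38.6%, 38.5% and 41.0%. Six3 went from 19411 to 20697 bp to 10631 to 19118 bp, Gsx2 from 18486 to 20003 bp to 11589 to 17253 bp and Gbx2 from 10258 to 10869 bp to 8288 to 10180 bp, with no overlap between stages. Emx1 was 5807 to 6440 bp at P2 and 5317 to 5618 bp at P60. Barhl2, Dlx4 and Pax3 were also called, and their ranges overlapped: 19539 to 24194 against 6860 to 19539 bp, 3701 to 4033 against 1904 to 3844 bp and 17641 to 18704 against 17261 to 18169 bp.

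Other regulators kept their width. Lhx5 measured 17017 to 17191 bp at P2 and 17017 to 17035 bp at P60, and Pax1, a sclerotome gene, 11164 bp in 11 of 12 libraries. Dlx5 and Dlx6 measured 36317 to 36378 bp at P2 and 33195 to 36378 bp at P60, and Dlx3, at the narrow end, 2013 to 2054 and 1923 to 2013 bp. Wide regions broken in some libraries gave scattered values: Dlx2 had 23786 to 28773 bp at P2 and 2932 to 27498 bp at P60, and Lhx9, a gonad gene, 13848 to 14881 and 2835 to 14693 bp, neither called. Counted as bases covered by any HMR within 5 kb of the gene, a measure chosen after the widths were seen, 24 regulators lost coverage, where 44.5% of all genes did, and none gained it, where 1.4% did. Of the 10 genes with a narrower HMR, 3 were not called by this measure, Gsx2 (a change of -0.71%), Pax3 (-3.88%) and Pou4f2 (-11.5%). HMRs filled all 12303 bp counted around Gsx2 in every P2 library, so narrowing outside this stretch could not register. Lhx3 lost 52.5% and Pax8 39.5% of their covered bases, although neither has an HMR over its TSS.

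**Figure D4:**
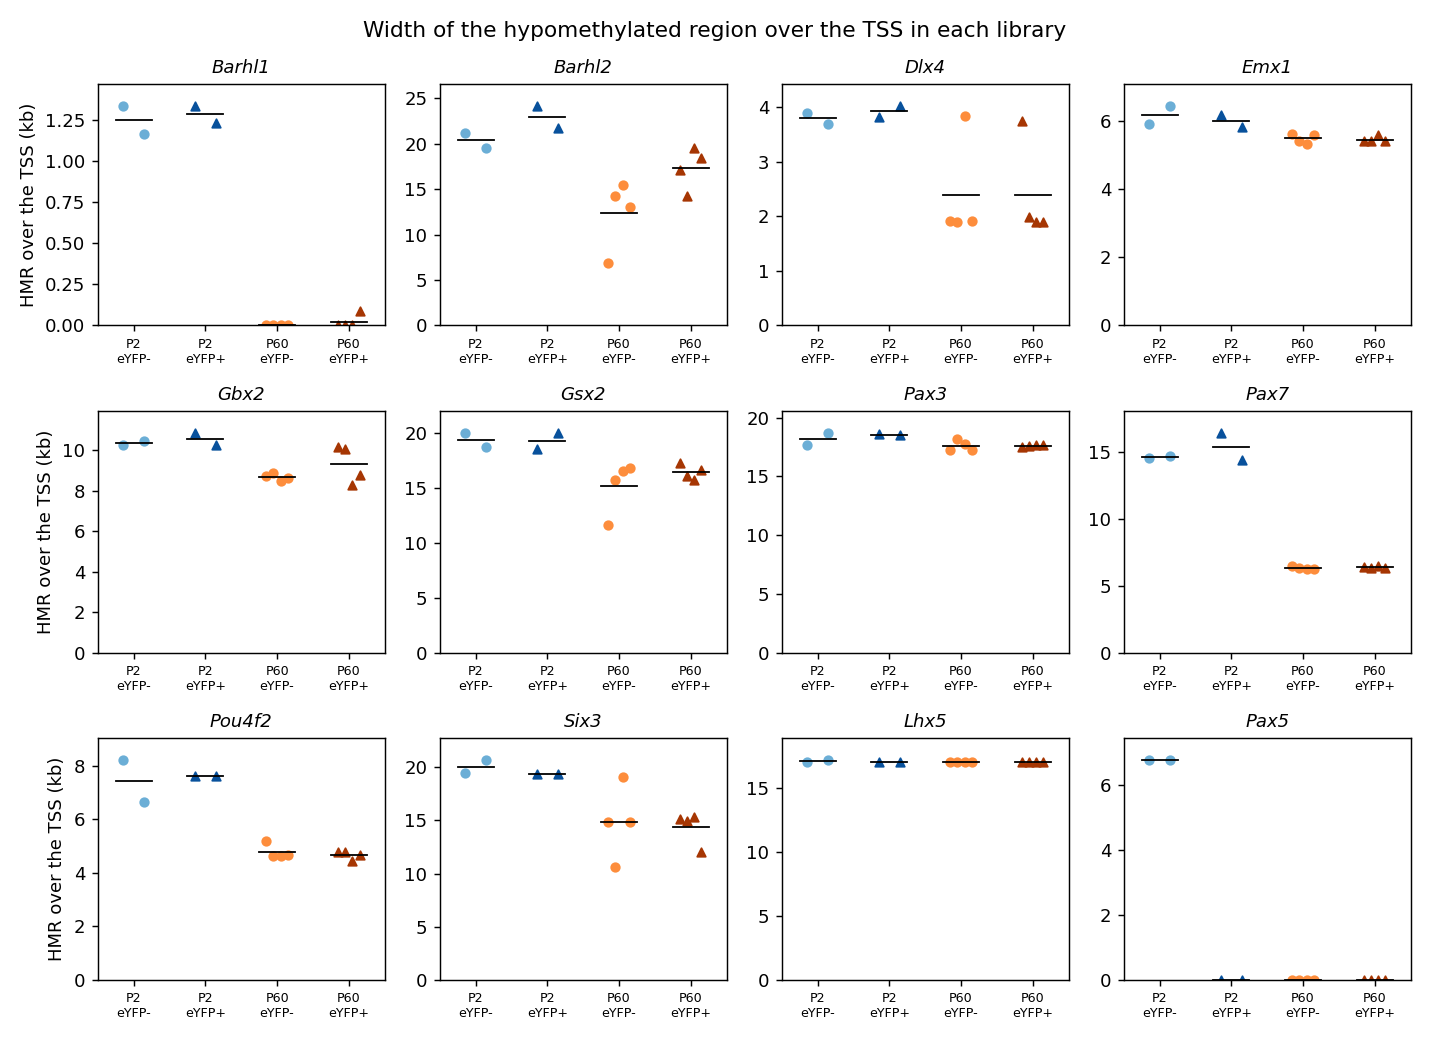
Width of the HMR over the TSS (kb) in each library for the 10 regulators called narrower at P60 and for Lhx5 and Pax5, with 1 point per library and a line at the group mean. Pax7 and Barhl1 show no overlap between P2 and P60, Lhx5 stays at 17 kb, and Pax5, whose TSS lies at the edge of its region, has an HMR over the TSS in the P2 eYFP- libraries only.

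**Figure D5:**
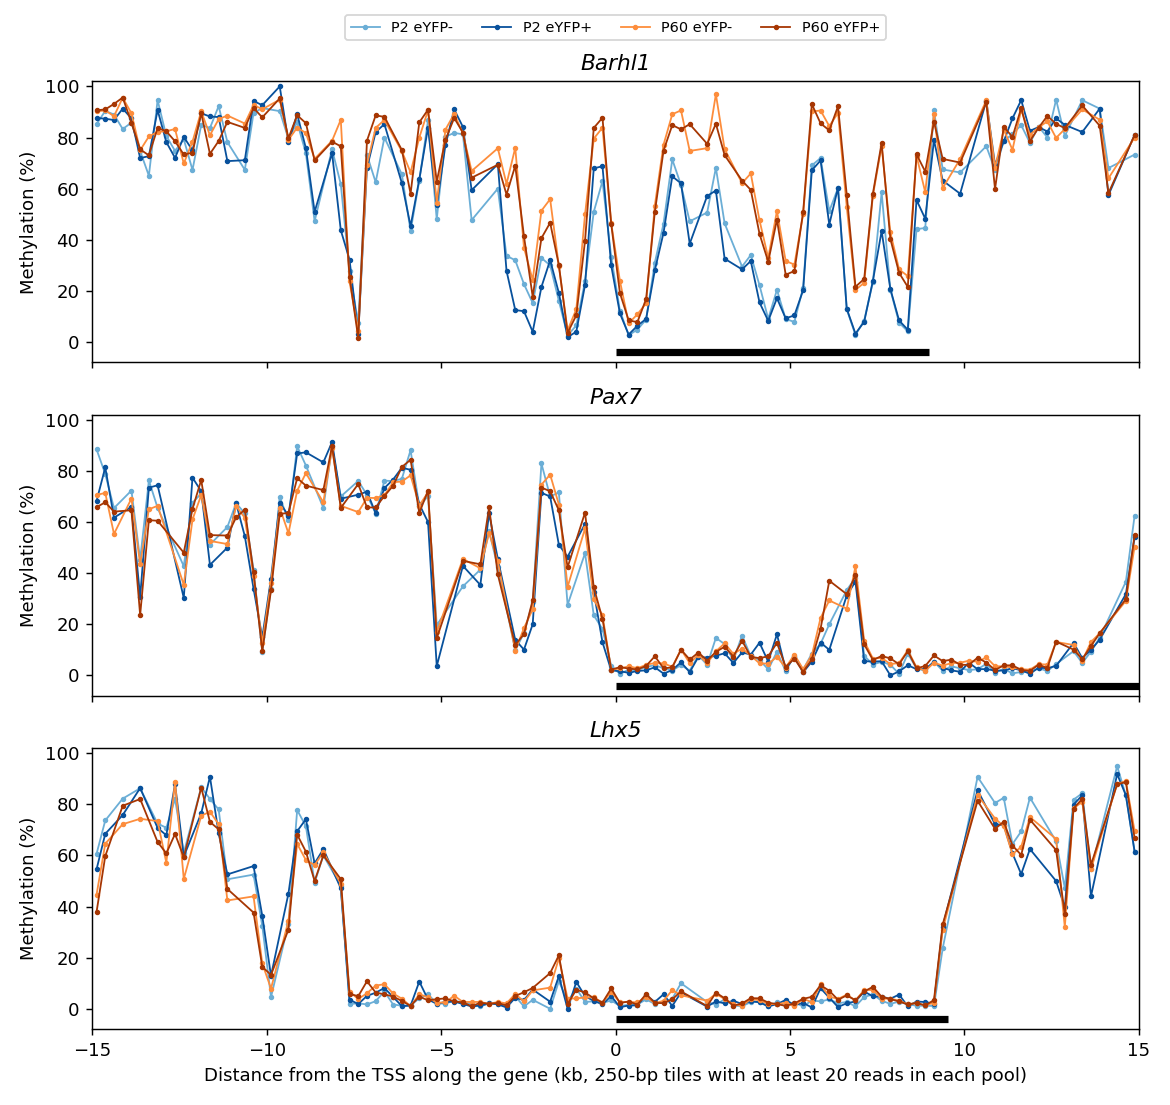
Methylation (%) in 250-bp tiles with at least 20 reads in each pool, by distance from the TSS (kb) of Barhl1, Pax7 and Lhx5, 1 line per pool, with the gene body as a black bar. The P60 lines lie above the P2 lines over most of the Barhl1 body, Pax7 has a peak near 6 to 7 kb that divides its valley, and Lhx5 stays low across its valley in all 4 pools.

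Few differences between the subtypes passed the tests at these genes. Between eYFP- and eYFP+ cells, no TSS and no gene body of the 47 was called at P2 or at P60 by Fisher's exact test, with 3 and 6 starts and 11 and 9 bodies at an unadjusted p under 0.05. Background shares were low as well, with 0.47% of all TSSs higher and 0.214% lower in eYFP+ cells at P2 and 0.245% and 0.397% at P60, and 1.15%, 0.322%, 0.184% and 0.298% of bodies. The change from P2 to P60 differed between subtypes for no TSS, body or HMR of the regulators (Wald test of the interaction, adjusted over all features), with 1, 10 and 25 at an unadjusted p under 0.05. Of all TSSs, 0.313% had a larger change in eYFP+ cells and 0.663% in eYFP- cells, of bodies 0.705% and 1.82%, and of HMRs 0.325% and 0.659%.

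Between the subtypes, 5 HMRs near regulators were lower in eYFP+ cells and none was higher. At P2 this was 1 of 172, where 0.671% of all HMRs were lower and 1.33% higher, and at P60 it was 4 of 172, where 0.818% were lower and 0.638% higher, with 21 and 28 of the 172 at an unadjusted Fisher p under 0.05. The P2 HMR lay in Pax7 (chr4:139536433-139537210), with 27.0% in eYFP- and 15.6% in eYFP+ cells (Fisher's exact test, adjusted p = 0.0272), and had 39.2% and 36.8% at P60. Of the P60 HMRs, 2 lay at Lhx6, a cortical interneuron gene, at chr2:35983808-35984820 inside it (28.1% and 20.2%, adjusted Fisher p = 5.61e-07) and at chr2:35966954-35968334 past its 3′ end (24.3% and 19.1%, adjusted Fisher p = 0.0414). The others lay past the 3′ end of Dlx3, a tooth and skin gene, at chr11:95017121-95017862 (13.8% and 8.14%, adjusted Fisher p = 0.000543) and inside Pax2 at chr19:44797087-44797784 (47.5% and 38.8%, adjusted Fisher p = 0.0149). At P2 the same 4 regions had 14.5% and 11.1%, 14.6% and 17.7%, 5.68% and 7.16%, and 27.1% and 24.0%.

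Widths did not separate the subtypes at P60 either. With 4 against 4 libraries an exact permutation test cannot go below 0.0286, which passes the adjustment only if most genes reach it. Here 0 regulators and 0.91% of all genes had an unadjusted p under 0.05, and limma called none of the regulators. The lowest p of a regulator was 0.0857, for Barhl2, with 12396 bp in eYFP- and 17341 bp in eYFP+ cells. At P2, with 2 libraries per subtype and no test, the HMR over the TSS of Pax5 measured 6782 bp in both eYFP- libraries, and no HMR covered the TSS in the 2 eYFP+ and all 8 P60 libraries. The TSS lies at the edge of this region, which was largely kept: P60 HMRs covered 6117 of its 6782 bp (90.2%), and covered bases around Pax5 were 15515 and 15375 in the P2 eYFP- and 15151 and 14973 in the P2 eYFP+ libraries. The TSS level of Pax5 was 22.6% in the P2 eYFP- pool and 23.3% in the P2 eYFP+ pool.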

How the data were processed

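Reads had been trimmed by the authors with Trim Galore 0.6.6 and cutadapt 1.16, checked with FastQC, mapped to mm39 with abismal and processed with MethPipe, with SAMtools 1.5 among the tools of the submitters' processing notes. The deposited files held counts of methylated and unmethylated reads per CpG for 4 pools, and HMR positions for pools and single libraries. The names B1 and B2 of the pooled tables were taken as eYFP- and eYFP+, and the HMRs of each P2 pool overlapped most with those of libraries labelled so, less clearly at P60. The deposited score column of the HMR files and the differentially methylated regions, which are the authors' own comparisons, were not used, nor was a p-value column of the deposited count tables, in which the authors gave for each CpG the probability of a higher level in B1 than in B2, and 0 columns of per-sample values were left unmapped.

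Levels are methylated over all reads within 500 bp of the TSS, in the gene body, or in HMRs merged over the 4 pools, with at least 5 CpGs and 50 reads in each pool. Between pools, Fisher's exact tests (two-sided) and Wald tests of the interaction were made, with Benjamini-Hochberg adjustment over all genes or all HMRs. Widths per library were compared by exact permutation tests, 495 splits for stage and 70 for subtype at P60, and by limma on log2(width + 100 bp). Because the smallest p is 0.00202, the width test makes calls only where many genes differ: on simulated widths it called 0% of 200 changed genes alone and 100% of 3000, with 1.05% of unchanged genes. Simulated widths were drawn independently for each library around the gene's mean, with P60 widths of changed genes multiplied by 0.6. Real widths also jumped where regions broke apart and deviated together between libraries, so these shares need not hold for them. On simulated TSS levels 92% and 90% of genes raised by 8 points were called in eYFP- and eYFP+ cells, and 0.0527% and 0.00527% of unchanged genes. The simulated reads held counting error only and no spread between mice, libraries or file sets. These shares thus cannot show how often unchanged genes are called in the real pools. Replicates were labelled as separate libraries, so p-values over libraries measure the spread between these pooled libraries.

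At P60 same-numbered eYFP- and eYFP+ libraries deviated together (Pearson r over 13293 genes of 0.247, 0.272, 0.181 and 0.213). Other P60 pairings with the same sex label had r of 0.109 to 0.167, and those with different sex labels had negative r. The numbers also go with sex and with file-name set, so same-numbered libraries were counted as pairs. The reported width tests split the libraries without these pairs, and the pairs entered only the replicate block. The block also averaged same-numbered P2 libraries, whose r was not computed. Their X-linked HMRs differed, with 92.5% and 13.0% present in replicate 1 and 13.4% and 84.3% in replicate 2 (eYFP- and eYFP+). Alternatives were other window sizes, thresholds, read minimums, weightings, flanks, scalings, a replicate block and leaving out each library, and 3 were added after the data were seen: covered bases, P60 replicate sets, and subtraction of the mitochondrial level. The members, the gene lists and the tests were chosen with earlier results of these data known. Values were given for the 5 largest and smallest TSS changes, the 6 largest rises and 3 largest falls of bodies, every TSS at 20% or more, every HMR called between subtypes, the extreme widths, and up to 3 genes per family. Python 3.11.15 with numpy 2.4.6, pandas 2.3.3 and scipy 1.17.1, and R 4.3.3 with limma 3.58.1 were used.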

Additional observations from a re-analysis of the deposited data

Results flagged for a closer look

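Among the HMR widths of the 4 libraries of a P60 subtype, 10 had a library far from the other 3 by Dixon's criterion, which chance meets in about 1 in 20 groups. In eYFP- cells, the Dlx4 region was widest in replicate 3, at 3844 bp, and the region over Dlx5 and Dlx6, counted for each gene, was narrowest in replicate 1, at 33195 bp. The Lhx2 region was widest in eYFP- replicate 3, at 23762 bp, and narrowest in eYFP+ replicate 2, at 4963 bp. Pou4f2 was widest in eYFP- replicate 1, at 5193 bp. In eYFP+ cells, Dlx4 was widest in replicate 1, at 3752 bp, Emx1 in replicate 3, at 5582 bp, and Barhl1 in replicate 4, which alone had an HMR, of 86 bp. Six3 was narrowest in eYFP+ replicate 4, at 12077 bp. No cause of these values was tested.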

How the results depend on the processing

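No result reversed. Of the recomputed values, 249 kept their side of the threshold or stayed close and 104 single-gene calls were lost; Pax8 at the TSS, for example, went to 4.63 and 4.06 points within 250 bp of the TSS, and Tbx1 to 3.03 and 2.40 points without the first 2000 bp of its body. The counts depended most on the minimum difference. The counts of regulators below have no share of all genes or HMRs at the same setting beside them. They thus cannot be set against the background, and the shares of the main rule do not apply to them. In eYFP- and eYFP+ cells, 1 and 3 starts were higher at P60 at 10 points and 16 and 18 at 2 points, for bodies 1 and 1 at 10 points and 14 and 15 at 2 points, and for HMRs 34 and 30 at 10 points and 91 and 89 at 2 points. Lower bodies numbered 0 and 0 at 10 points, 0 and 0 with the mean of single CpG levels, 7 and 9 outside merged HMRs, and 8 in eYFP- cells at 2 points. Lower HMRs numbered 0 in eYFP- cells at 10 points and 0 in eYFP+ cells among HMRs of at least 200 bp. Between subtypes, lower HMRs at P60 numbered 2 with no flank, 2 with CpGs of at least 10 reads, 0 at 10 points and 7 at 2 points. Bodies at 2 points gave 2 calls at P2 and 2 for the difference of the stage change, and a TSS window of 1000 bp each side gave 1, Pax8. By the main rule, the background among genes with CpG-rich starts was 1.38% and 1.38% higher and 0.459% and 1.15% lower at the TSS, and 5.38% and 7.49% lower in bodies.

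Narrower regions numbered 6 with widths divided by the library's median, 24 by covered bases (an alternative chosen after the data were seen), and 6 to 10 when single libraries were left out, the 6 without P60 eYFP- replicate 4. Each omission lost 2 to 4 of the 10 calls, and the total of 10 thus includes other genes. No share of all genes is given for the divided widths or the omissions. With the replicate block, in which libraries paired by number were averaged, 0 could be called, since its smallest p is 0.0667. The block changed no call between subtypes. The cause of each shift was not tested. Pools have no replicates, small differences at single CpGs are limited by depth, and stage cannot be told apart from the file sets.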

Other observations

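Regulators that β cells use themselves moved by other amounts. At the TSS, Myt1, an islet progenitor gene that also drives part of the split Cre, rose from 27.9% and 24.8% at P2 in eYFP- and eYFP+ cells to 53.8% and 53.5% at P60 (Fisher's exact test, called in both subtypes). The body of Nkx2-2 rose in both subtypes, from 5.12% and 5.28% to 10.9% and 11.6% (Fisher's exact test, called in both).

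Of 28 genes of the Polycomb and DNA methylation machinery tested, 3 rose at the TSS in each subtype, among them the methyltransferase gene Dnmt3b (17.6% and 17.5% to 24.0% and 25.4%), and 0 and 2 fell. Of all genes, 8.08% and 7.84% rose at the TSS in eYFP- and eYFP+ cells, and 3.59% and 6.01% fell. In gene bodies 3 rose in each subtype, all of them Polycomb repressive complex 1 genes, namely Bmi1 (19.0% and 19.0% to 25.1% and 24.2%), Cbx2 (47.2% and 47% to 52.3% and 53.0%) and Cbx8 (37.7% and 36.1% to 56.6% and 56.5%). Other genes of this complex, such as Rnf2 and Ring1, were not called in their bodies. The body of Kdm6a fell in eYFP+ cells, from 66.5% to 59.8%. Of all bodies, 4.81% and 3.79% rose and 13.5% and 18.7% fell.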
